A study of Mus musculus with 2 samples.

Results

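Foxp3+ regulatory T cells were 644 of the 15723 cells that passed the limits on depth and quality in single-cell RNA libraries of mouse glioma. Endogenous immune cells, sorted as live CD45.2+ CD45.1- cells, came from tumours of animals that received PBS or an agent given in the labels as EM, which the labels do not spell out; the title of the study speaks of adoptive macrophages. The EM library carries 72 h in its title and the labels give no time for PBS, so treatment and time of collection cannot be told apart. Each treatment has 1 library, and the labels state neither how many animals it comes from nor the glioma line, mouse strain, age or host genotype. Members were chosen by their own UMI counts: a cell was one when it held at least 2 UMIs (unique molecular identifiers, which count RNA molecules) over Cd3d, Cd3e and Cd3g, at least 1 Foxp3 UMI, none of Cd8a or Cd8b1, and at most 2 over the cell cycle genes Mki67, Top2a, Birc5 and Ccna2. The PBS library held 97 members with 387206 UMIs in all, and the EM library held 547 with 1309218. T cells under the same limits with at least 1 Cd4 UMI and no Foxp3 UMI served for comparison, 395 in PBS and 885 in EM. Levels are given as CPM, the UMIs of a gene scaled to a common total, from the summed counts of a group of cells, and 95% intervals cover counting error only, since a group is 1 library and has no replicate to test against.

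Regulatory T cells restrain other immune cells. Their lineage factor, Foxp3, keeps the high-affinity interleukin 2 receptor chain Il2ra (CD25) and the inhibitory receptor Ctla4 high, and the cells act through captured interleukin 2, inhibitory receptors, interleukin 10, transforming growth factor beta and, in tumours, granzyme B. In gliomas they are counted among the cells that dampen the T cell response. Interferons, the antiviral cytokines, act through factors such as Stat2 and Irf9, whose complexes bind GAAA repeats in the promoters of the genes they switch on.

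Before any comparison, several differences between the libraries bear on the values. The median member held 3467 UMIs in PBS and 2114 in EM. Xist, which is transcribed from the inactive X chromosome of females, was at 12.9 CPM in PBS members and 426 CPM in EM members, while the Y-linked Ddx3y was at 160 and 8.40 CPM, so treatment and the sex of the animals cannot be told apart. One PBS member held 73.8% of the 1684 CPM of macrophage and microglia marker UMIs over all PBS members and 80.2% of the 1823 CPM of dendritic cell marker UMIs. In EM members, those lists summed to 752 and 906 CPM, with at most 10.9% and 13.7% in any 1 cell. The PBS sums, carried mostly by 1 cell, therefore do not give the level of such RNA in the other PBS members. Of 14 macrophage markers 13 had a UMI in each library's members, with Tmem119 at 0 in PBS and P2ry12 at 0 in EM, and of the 9 dendritic markers 5 were seen in PBS and 8 in EM. Basophils and mast cells (5 markers) and erythroid cells (3 markers) had no marker UMI in PBS members. The libraries shared 66 cell barcodes, of which 5 belonged to EM members and none to PBS members.

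The label was checked on markers that the rule did not use. Il2ra was at 1193 CPM in PBS members and 1906 in EM members, against 97.4 and 373 in the comparison cells. Ikzf2 (Helios, a zinc finger factor of stable regulatory T cells) was at 1705 and 1746 CPM against 166 and 338. Izumo1r (the folate receptor FR4) was at 715 and 542 CPM against 151 and 158, and Ctla4 at 2583 and 1383 CPM against 1219 and 606.5. Each of the 4 markers was therefore higher in the members in both libraries. After every cell was thinned to 1000 UMIs and chosen again, all 49 PBS members and 266 of 273 EM members held a UMI of at least 1 of the 4. In the comparison cells, 28.2% in PBS and 39.2% in EM had none of them.

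The promoter stretches of Isg15, Oas3, Rsad2 and Ifit3 are shown because the interferon list, described further on, separated the libraries most and because these genes have GAAA repeats close to their starts. The letters run 5′ to 3′ on the strand of the gene and come from RefSeq on GRCm38.p6, and capitals mark GAAANN followed by GAAA, or its reverse complement TTTCNN followed by TTTC, overlapping matches included. Isg15 (a ubiquitin-like antiviral protein) lies on the minus strand and its stretch is at chr4:156200850-156200921. Oas3, an RNA sensor, is on the minus strand, at chr5:120777700-120777759. Rsad2 (viperin, an antiviral enzyme) is on the minus strand, at chr12:26456538-26456597. Ifit3, an antiviral RNA-binding protein, is on the plus strand, at chr19:34583348-34583441, and the stretch of its neighbour Ifit3b, at chr19:34607744-34607837, is letter for letter the same.
Isg15: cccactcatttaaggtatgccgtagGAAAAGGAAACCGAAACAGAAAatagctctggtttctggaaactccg
Oas3: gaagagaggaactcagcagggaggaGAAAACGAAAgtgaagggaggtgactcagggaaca
Rsad2: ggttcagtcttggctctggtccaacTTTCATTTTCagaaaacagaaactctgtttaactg
Ifit3: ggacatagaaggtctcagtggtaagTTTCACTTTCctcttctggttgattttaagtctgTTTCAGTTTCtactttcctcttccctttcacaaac

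Regulatory T cells made up a larger share of Cd4 T cells, meaning members plus comparison cells, in EM than in PBS. A Cd4 UMI was seen in 67.0% of PBS members and 70.4% of EM members, and the rule does not ask for one. Members were 97 of 492 such cells in PBS (19.7%, exact binomial interval 16.3 to 23.5) and 547 of 1432 in EM (38.2%, 35.7 to 40.8), a ratio of 1.94 (1.56 to 2.43). With each cell thinned to 1000 UMIs the shares were 21.7% (49 of 226) and 31.9% (273 of 855), a ratio of 1.47 (1.08 to 2.04), and 702 PBS cells and 814 EM cells were too shallow to enter. With 500 UMIs per cell, 7 of 72 and 100 of 340 Cd4 T cells were members, or 9.72% and 29.4%, a ratio of 3.03 (1.42 to 7.72). The direction was thus the same at each depth, while its size moved by more than 1.5 times. Over wider denominators the gap was larger: members were 2.39% and 11.2% of cells with at least 2 Cd3 UMIs, and 1.25% and 6.87% of all cells. For every 100 CD8 T cells there were 3.91 members in PBS and 25.5 in EM. Since the cells were sorted and the counts are shares, a larger number of these cells cannot be told apart from fewer of the others.

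**Figure D1:**
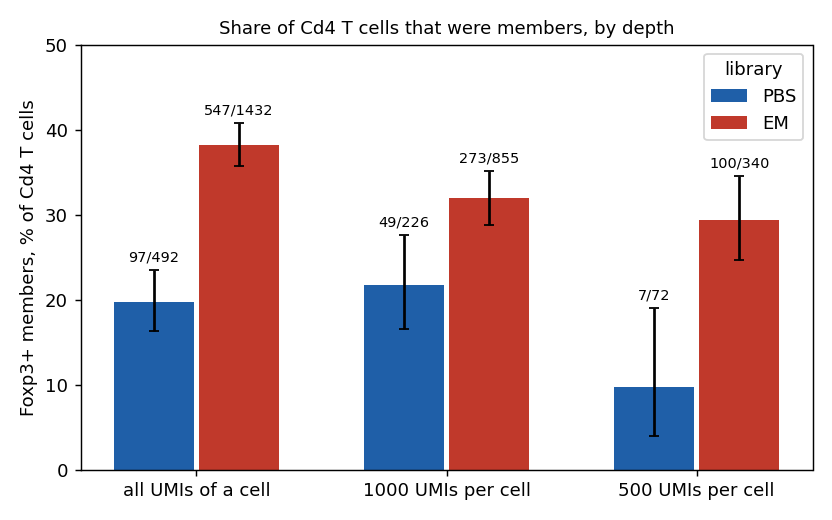
Members as a percentage of Cd4 T cells (members plus comparison cells) in each library, from all UMIs of a cell or after thinning to 1000 or 500 UMIs; bars are shares, lines are 95% exact binomial intervals and the fractions give the cells. EM stood above PBS at each depth, 38.2% against 19.7% with all UMIs and 31.9% against 21.7% at 1000 UMIs.

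Foxp3 UMIs were rare in cells that should lack the gene. Among CD8 T cells 7 of 2480 in PBS (0.282%) and 32 of 2147 in EM (1.49%) held one, at median depths of 4364 and 2280 UMIs. No macrophage or microglial cell in PBS did (0 of 1618) and 4 of 871 did in EM. B cells had none in either library. Foxp3 itself (ENSMUSG00000039521, plus strand, chrX:7573644-7595245 on GRCm38) was at 1113 CPM in PBS members and 1162 CPM in EM members, levels the rule partly sets. Members with a single Foxp3 UMI were 19 of 97 (19.6%) in PBS and 178 of 547 (32.5%) in EM, and those with 4 or more were 49 (50.5%) and 150 (27.4%). Cells at the threshold carried the identity genes too: with 1 Foxp3 UMI, Ikzf2 was at 1637 CPM in PBS and 1742 in EM, and Il2ra at 588 and 1632. Il2ra was higher where more Foxp3 was seen, reaching 1468 and 2297 CPM with 4 or more UMIs. Just outside the limits lay 7 PBS and 62 EM cells with 1 Cd3 UMI, 28 and 55 with 3 or more cell cycle UMIs, and 23 and 92 with a Cd8 UMI. Those cells with a Cd8 UMI had Ikzf2 at 1493 and 1002 CPM.

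Set against Foxp3-negative Cd4 T cells, the members differed first in the identity genes. Of 19 identity genes with at least 20 UMIs, 11 were more than 2-fold higher and 1 more than 2-fold lower in PBS, and 13 and 0 were so in EM. Over all genes with that many UMIs, 5.75% were higher and 10.3% lower in PBS, and 3.92% and 4.87% in EM. The list's median log2 ratio was 1.19 in PBS and 1.77 in EM, where the median of all genes was -0.05 and 0.01. Foxp3, which the rule fixes, is on that list. Itgae (CD103, the integrin chain that binds E-cadherin) was at 519 CPM against 20.9 in PBS and at 325 against 69.7 in EM. Lrrc32 (GARP, which holds latent transforming growth factor beta at the surface) was at 106 against 1.31 CPM and at 79.4 against 17.04. Ikzf4 (Eos, a partner of Foxp3) was at 349 against 49.7 and at 158 against 36.1 CPM. Exceptions were Rgs1, a regulator of G protein signalling, at 780 against 1039 and 484 against 814 CPM, and Nrp1, a semaphorin coreceptor, at 108 against 220 and 133 against 184.

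**Figure D2:**
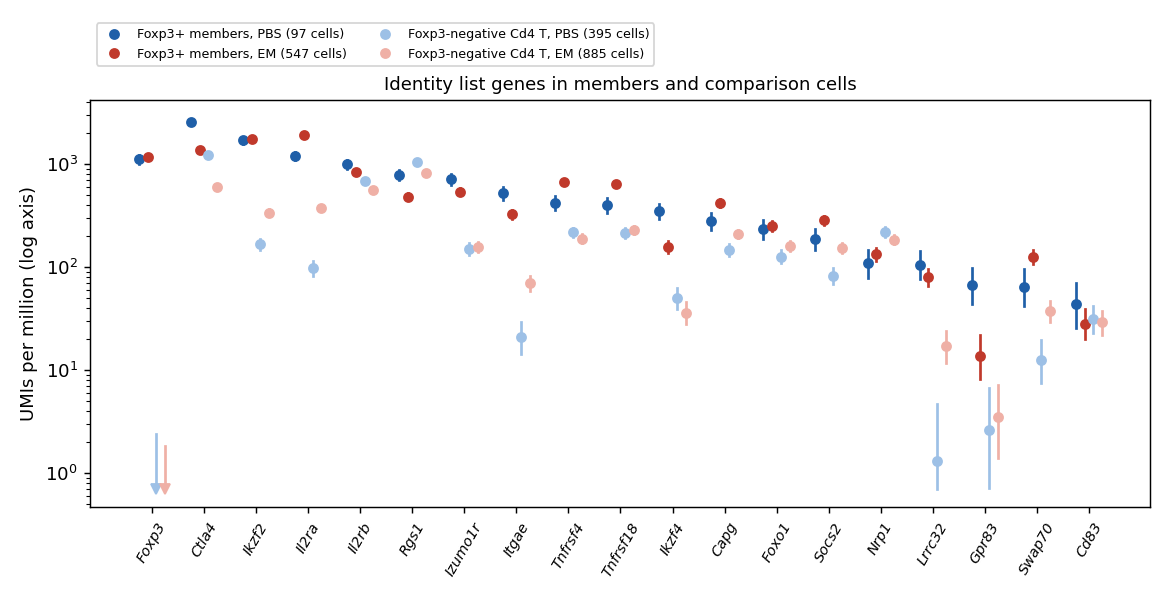
CPM (log axis) of the identity list in members and in Foxp3-negative Cd4 T cells of each library, with 95% Poisson intervals as lines; triangles mark groups with no UMI, drawn at the axis foot. Ikzf2, Il2ra, Izumo1r, Itgae and Ikzf4 sat higher in the members of both libraries, while Rgs1 and Nrp1 sat lower.

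Among effector molecules, Gzmb (granzyme B, a serine protease of cytotoxic granules) was at 1839 CPM in PBS members and 2452 in EM members, and at 362 and 537 CPM in the comparison cells. It was seen in 60 of 97 and 330 of 547 members, and 1 PBS cell held 17.6% of that library's Gzmb UMIs. Itgb8, the integrin chain that activates transforming growth factor beta, was at 191 and 195 CPM against 22.2 and 42.1. Il10 was at 256 and 283 CPM against 94.2 and 55.6, and was found in 31 of 97 and 119 of 547 members. Tnfrsf9 (4-1BB, a costimulatory receptor) was at 1049 and 1225 CPM against 245 and 336, and Tnfrsf8 (CD30) at 49.1 and 38.2 against 3.27 and 3.01. Il1rl1, the interleukin 33 receptor, was at 121 and 176 CPM against 29.4 and 47.1. These 6 genes were all more than 2-fold higher in the members in both libraries. Of 30 effector and tumour regulatory T cell genes, 7 were so and 4 lower in PBS, and 12 and 1 in EM. Of 19 suppressive mediators, 7 were higher and 2 lower in PBS, and 9 and 0 in EM. Over all genes with at least 20 UMIs, 5.75% were higher and 10.3% lower in PBS, and 3.92% and 4.87% in EM. Cxcr6, Cd44 and Penk, of the same lists, were among those lower in PBS members.

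Of the helper programme factors and cytokines, 1 of 20 was more than 2-fold higher in members than in comparison cells and 8 lower in PBS. In EM, 2 of 26 were higher and 8 lower. The shares among all genes with at least 20 UMIs were 5.75% higher and 10.3% lower in PBS, and 3.92% and 4.87% in EM. Outside that list, several T cell ligands were low in the members. Cd40lg, the ligand that licenses antigen-presenting cells, had 1 UMI in PBS members and 12 in EM members (2.58 and 9.17 CPM) against 141 CPM in the comparison cells of each library. The log2 ratio was -5.77 (-11.08 to -3.28) in PBS and -3.95 (-4.92 to -3.12) in EM. Tnfsf8 (CD30 ligand) was at 10.3 and 13.8 CPM against 300.1 and 372, and Tnfsf11 (RANK ligand) at 20.7 and 45.8 against 332 and 250.1. Ccl1, the ligand of Ccr8, was at 7.75 and 9.17 CPM against 238 and 337. Ifng (interferon gamma), which is on that list, had 1 UMI in PBS members and 51 in EM members, 2.58 and 39.0 CPM, against 216 and 360 CPM. Tcf7, a factor of naive and memory T cells, was at 20.7 and 18.3 CPM against 135 and 182. Of all genes with at least 50 UMIs in a comparison, 4.03% were more than 2-fold higher and 6.53% lower in PBS members, and 2.57% and 3.01% in EM members. Over 5703 genes with at least 50 UMIs in both libraries' comparisons, 209 were higher in PBS members by more than 2-fold and 120 in EM members, and 64 were on both lists, 30.6% of the first and 53.3% of the second. Lower by that margin were 343 and 148, with 94 shared, 27.4% and 63.5% of each. Outside the lists, the genes highest in members by the lesser of the 2 ratios included Arl5a (1211 against 192 and 916 against 227 CPM) and Bmyc (250.5 against 68.0 and 134 against 26.6).

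The type I interferon response separated EM members from PBS members more than any other of the 22 lists. Of its 49 measured genes 31 were more than 2-fold higher in EM and none was lower by that margin, where 7.95% of all genes tested were higher and 6.96% lower. All 49 lay above equality and 44 of them had an interval wholly above it. The median log2 ratio was 1.46, against -0.03 over all genes. Isg15 was at 18.1 CPM in PBS members (7 UMIs in 6 cells) and 186 in EM members (244 UMIs in 149 cells), a log2 ratio of 3.37 (2.30 to 4.70). Ifi27l2a, an interferon-induced membrane protein, was at 620 and 3383 CPM and was present in 74.2% and 95.6% of members. At 1000 UMIs per cell it was present in 44.9% (30.7 to 59.8) and 86.8% (82.2 to 90.6) of them. The master factor of the response, Irf7, was at 15.5 and 108 CPM, and Usp18, the deubiquitinase that removes Isg15, at 12.9 and 102. Rsad2 was at 12.9 and 97.8 CPM, and Oasl2 at 20.7 and 144. Oas2 had no UMI in PBS members and 58 in EM members, at least 5.72-fold higher against a floor of 3 UMIs in the PBS group. The list's median was the same with Oas2 set to that bound.

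**Figure D3:**
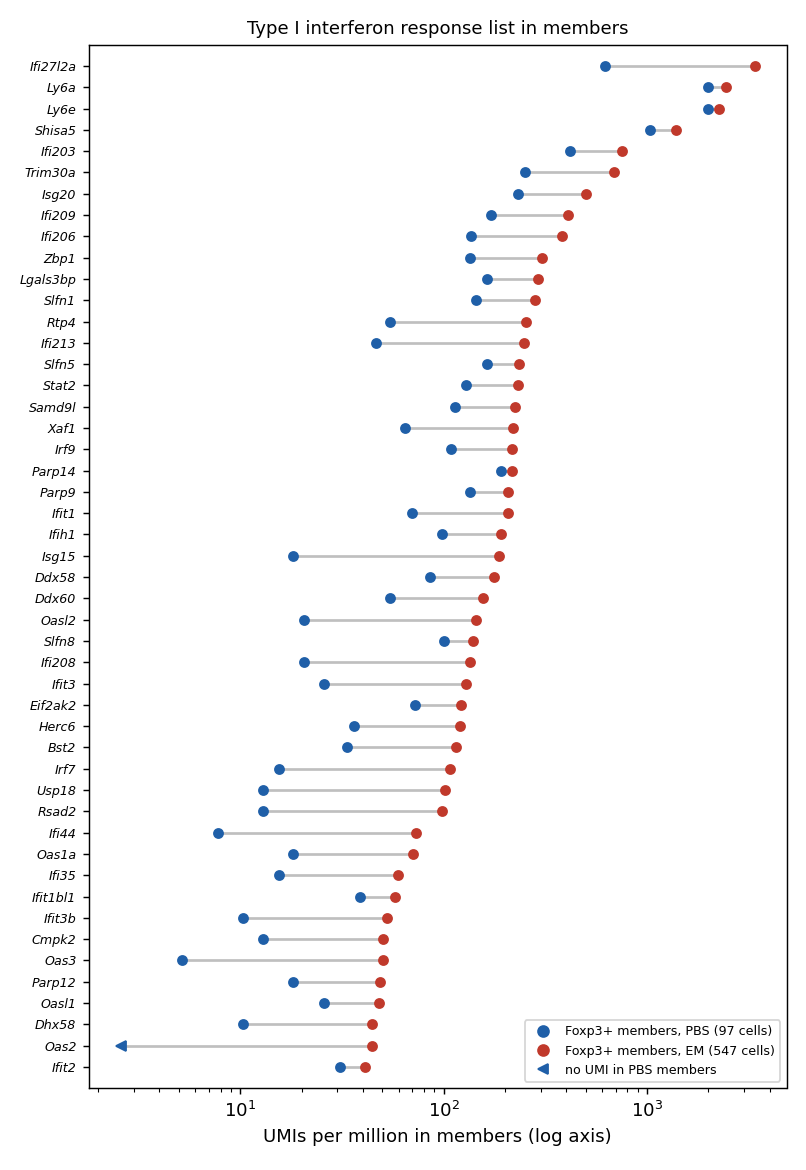
Levels of 48 of the 49 measured type I interferon response genes in members, PBS in blue and EM in red, in CPM on a log axis, ordered by the EM level; the triangle marks a gene with no UMI in PBS members. Each gene was higher in EM, with Ifi27l2a at 620 and 3383 CPM at the top and the already abundant Ly6a and Ly6e close together.

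Some genes of the list were already abundant in PBS members. Ly6e was at 1986 and 2251 CPM and Ly6a at 1991 and 2440. Sensors and factors lay between, with Ifih1 (MDA5) at 98.1 and 191 CPM, Stat2 at 129 and 231 and Irf9 at 108 and 218. In the comparison cells 42 of 49 genes were more than 2-fold higher and none lower (4.54% and 7.7% of all genes), with a median of 1.61. Both comparisons rest on the same 2 libraries. Within EM, the members over comparison median was 0.05, and within PBS it was 0.40 over 43 measured genes. The Ifi200 family (Ifi203, Ifi206, Ifi208, Ifi209, Ifi213, Ifi214) and the Ifit and Oas families hold near-identical copies, and how shared reads were assigned is not given in the sources used here, so values of single copies are uncertain. Ifi213 and Ifi208, for example, were at 46.5 and 248 and at 20.7 and 135 CPM.

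The pattern of GAAANN followed by GAAA, read on both strands, was in 22 of 38 promoters (57.9%) of measured interferon list genes that had a RefSeq window of 250 bases before to 50 after the start. It was in 1079 of 27025 promoters overall (3.99%) and in 4.99% of the 4246 tested genes with a window. Of the list's genes past 2-fold 14 of 25 had it, and of the rest 8 of 13 did. Of other genes more than 2-fold higher in EM members 13 of 204 (6.37%) had it, and of those lower 9 of 173 (5.20%). Isg15, Oas3, Rsad2 and Ifit3 above are among the 14, with matches that begin 78, 75, 120 and 156 bases before the start.

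Genes usually tied to interferon gamma stood nearer to equality in the members. Of 26 of them 2 were more than 2-fold higher and none lower, with a median of 0.13, beside 7.95% and 6.96% of all genes. In the comparison cells 4 of 26 were higher and none lower, with a median of 0.46, beside 4.54% and 7.7% of all genes. Set against comparison cells, 11 of 24 were more than 2-fold higher in PBS members, with a median of 0.82, beside 5.75% of all genes. In EM members 3 of 26 were so, with a median of 0.27, beside 3.92% of all genes. The values that follow are PBS and EM members. Gbp9 and Gbp2, guanylate-binding proteins, were at 41.3 and 105 CPM and at 108 and 235, while Irgm2, an immunity-related GTPase, was at 176 and 87.8. MHC class I genes had a median of 0.53, with 1 of 15 past 2-fold, Psme2 (a proteasome activator subunit), at 87.8 and 189 CPM. H2-K1, a class I heavy chain, was at 4876 and 7089 CPM.

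Identity genes went both ways between the libraries, with 6 of 19 intervals above equality and 7 below. The median log2 ratio of EM over PBS was 0.03 over 19 genes, none more than 2-fold higher and 2 lower. Over all genes 7.95% were higher and 6.96% lower. Ikzf2 had a ratio of 0.03 (-0.09 to 0.16). Il2ra was higher in EM, 0.68 (0.53 to 0.82), and so were Tnfrsf18 (GITR, 398 and 645 CPM), Tnfrsf4 (OX40, 421 and 664 CPM) and Swap70 (64.6 and 126 CPM). Ctla4 was lower, -0.90 (-1.01 to -0.79), and was seen in 96 of 97 PBS and 457 of 547 EM members. At 1000 UMIs per cell Ctla4 was present in 85.7% (72.8 to 94.1) of PBS and 65.6% (59.6 to 71.2) of EM members. Ikzf4 had a ratio of -1.14 (-1.46 to -0.82), and Gpr83, an orphan receptor of regulatory T cells, one of -2.29 (-3.24 to -1.37) with 26 and 18 UMIs. Itgae had a ratio of -0.68 (-0.92 to -0.43) with all UMIs and of 0.84 (-0.05 to 1.89) among members chosen again at 1000 UMIs per cell, an interval that includes equality. The comparison cells had a list median of 0.09 over 17 genes, with 5 higher and 1 lower, beside 4.54% and 7.7% of all genes. Their ratios were 1.02 for Ikzf2, 1.94 for Il2ra, -1.01 for Ctla4 and 1.74 for Itgae.

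The suppressive mediators had a median of -0.29, with 1 of 19 genes past 2-fold, which was lower, where 6.96% of all genes were lower. That gene was Areg (amphiregulin, a growth factor with which tissue regulatory T cells aid repair, ENSMUSG00000029378). It had 163 UMIs in 31 of 97 PBS members and 43 UMIs in 18 of 547 EM members, 421 and 32.8 CPM, a ratio of -3.68 (-4.20 to -3.19). At 1000 UMIs per cell 22.4% (11.8 to 36.6) and 2.56% (1.04 to 5.21) of members held an Areg UMI. Comparison cells had Areg at 18.3 and 6.52 CPM. Il10, Gzmb and Itgb8 had ratios of 0.14, 0.42 and 0.03. Gzmb had a ratio of -0.13 (-0.39 to 0.14) among members chosen at 1000 UMIs per cell.

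Effector and tumour regulatory T cell genes had a median of 0.19, with 4 of 29 more than 2-fold higher and 1 lower. Over all genes 7.95% were higher and 6.96% lower. Cd44, the hyaluronan receptor of activated T cells, was at 152 and 631 CPM, a ratio of 2.05 (1.67 to 2.46), and was present in 18.4% (8.76 to 32.02) and 39.2% (33.4 to 45.3) of members at 1000 UMIs per cell. Cxcr6, a receptor of tissue-resident T cells, was at 23.2 and 122 CPM, from 9 and 160 UMIs. Klrg1, a mark of late effector cells, was at 51.7 and 121 CPM. Irf4, a factor of effector regulatory T cells, was at 33.6 and 69.5. Prdm1 (Blimp-1, a factor of the same state) was lower, at 349 and 180 CPM.

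Checkpoint and costimulation genes had a median of 0.44 in the members, with 5 of 20 more than 2-fold higher and none lower, where 7.95% of all genes were higher and 6.96% lower. Their Foxp3-negative counterparts had a median of -0.03, with none of 22 higher and 4 lower, beside 4.54% and 7.7% of all genes. Havcr2 (TIM-3) was at 28.4 CPM in PBS members and 111 in EM members, from 11 and 145 UMIs, and at 241 and 89.7 CPM in the comparison cells. Pdcd1 (PD-1) was at 33.6 and 80.2 CPM, from 13 and 105 UMIs, and at 190 and 110 CPM in the comparison cells. At 1000 UMIs per cell, no PBS member of 49 held a UMI of either, which allows a share of up to 7.25%, and 8.06% and 6.23% of EM members did. Cd96, an inhibitory receptor for nectin ligands, was at 10.3 and 51.2 CPM, from 4 and 67 UMIs, and Btla at 20.7 and 47.4 from 8 and 62. Tnfsf11 was the last of the 5. These PBS counts are small, and each is the sum over 97 cells. Icos, a costimulatory receptor, was at 1524 and 2227 CPM. Of the 20 genes 16 lay above equality, 11 of them with an interval wholly above it. Ctla4, which is also on this list, was the only gene with an interval wholly below it, at 2583 and 1383 CPM. Ctla4 was lower in the comparison cells of EM too, at 1219 and 606.5 CPM, a ratio of -1.01 (-1.11 to -0.90).

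**Figure D4:**
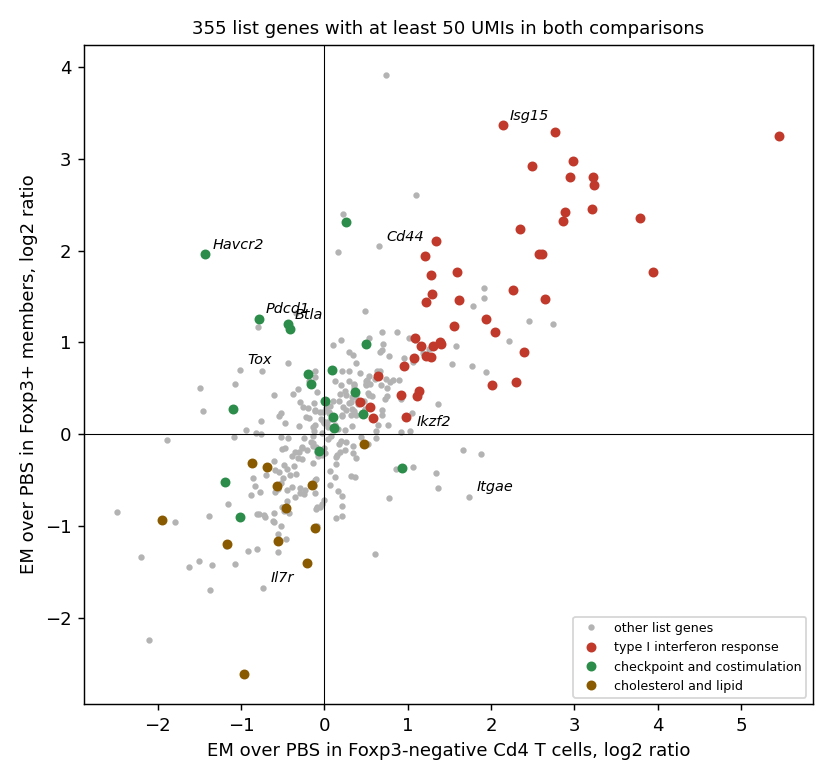
Log2 ratios of EM over PBS in members (vertical) and in Foxp3-negative Cd4 T cells (horizontal) for 355 list genes with at least 50 UMIs in each comparison; each point is a gene. Interferon list genes lie to the upper right, while Havcr2 and Pdcd1 lie at 1.96 and 1.26 in members and at -1.43 and -0.79 in the comparison cells.

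Genes of exhausted and so-called fragile regulatory T cells had a median of 0.27, with 3 of 13 higher and 2 lower, beside 7.95% and 6.96% of all genes. Tox, a factor of exhausted T cells, was at 220 and 358 CPM, and Tox2 at 36.2 and 7.64. Ifng, with the UMI counts given above, had a ratio of 3.92 (1.37 to 9.25). The comparison cells had a median of -0.81, with none of 14 higher and 6 lower, beside 4.54% and 7.7% of all genes.

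Of 17 cholesterol and lipid genes 9 were more than 2-fold lower in EM members and none higher, with a median of -1.02, where 6.96% of all genes were lower. In the comparison cells 3 were lower and none higher, with a median of -0.53, where 7.7% of all genes were lower. Idi1, Hmgcs1, Cyp51, Sqle and Fdft1, enzymes of the sterol pathway, were at 93.0 and 35.1, at 64.6 and 28.3, at 90.4 and 40.5, at 28.4 and 9.17 and at 62.0 and 30.6 CPM. Srebf1, a factor that drives lipid synthesis, was at 51.7 and 21.4. Without the PBS member rich in macrophage markers the median was -1.09, and without all cells that held UMIs of other classes it was -0.66, with Idi1 at 0.67 (-1.45 to 3.85). The part of such RNA in the result was not tested. Among members chosen at 1000 UMIs per cell Fdft1 had a ratio of 1.33 (-1.39 to 6.73) and Scd2, a desaturase, of 0.61 (-1.46 to 3.77), with intervals that span equality.

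Hypoxia genes had a median of -0.55, with 4 of 16 more than 2-fold lower, beside 6.96% of all genes. Vegfa (an angiogenic growth factor) had 19 UMIs in PBS members and 4 in EM members, 49.1 and 3.06 CPM. Hilpda, a lipid droplet protein, was at 165 and 35.1 CPM, and Slc2a1, the glucose transporter GLUT1, at 116 and 48.1. Egln3, an oxygen-sensing hydroxylase, was at 98.1 and 40.5. The comparison cells had Hilpda at 185 and 43.1 CPM. Among members chosen at 1000 UMIs per cell the median was 0.05. Glycolysis genes had a median of -0.23 with 2 of 17 lower, and oxidative phosphorylation genes of 0.08 with none of 21 past 2-fold.

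Of 24 chemokine receptor and homing genes 2 were more than 2-fold higher (Cd44 and Cxcr6), 7 lower and 15 between, with a median of -0.25, where 7.95% of all genes were higher and 6.96% lower. Comparison cells had 3 of 24 higher and 7 lower (4.54% and 7.7% of all genes). Ccr2, the receptor for Ccl2, was at 1258 and 669 CPM. Itga4, the VLA-4 integrin chain, was at 643 and 276 CPM, and Cxcr4 at 158 and 58.8. Ccr9, a gut-homing receptor, was at 124 and 21.4 CPM, with 50% of its PBS UMIs in 1 cell. The comparison cells had Itga4 at 921 CPM in PBS and 406 in EM, and Cxcr4 at 161.5 and 63.7.

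Quiescence and recirculation genes went both ways, with 4 of 18 higher, 4 lower and a median of -0.17, beside 7.95% and 6.96% of all genes. Il7r, the interleukin 7 receptor, was at 1612 CPM in PBS members and 506 in EM members, a ratio of -1.67 (-1.83 to -1.51), and was present in 88 of 97 and 242 of 547. Bach2, a repressor that keeps T cells quiescent, was at 69.7 and 28.3. Klf2, a factor of quiescent and recirculating T cells, was at 64.6 and 170 CPM. Ms4a4b, a membrane protein of T cells, was at 126 and 768 CPM. Igfbp4, a binding protein of insulin-like growth factors, is not read further, since 1 PBS cell held 96.3% of its 27 UMIs. In the comparison cells 3 of 19 genes of the list were higher and 1 lower, beside 4.54% and 7.7% of all genes. Their median was 0.08. Il7r was among the list's lowest ratios there too, and Klf2, Ms4a4b and Bach2 were among its highest.

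For the remaining lists the members' EM over PBS medians lay between -0.33 and 0.27. Their counts past 2-fold stand beside 7.95% of all genes higher and 6.96% lower. Helper programme factors and cytokines had a median of 0.18 with 3 of 20 higher and 3 lower, among them Ccl5 (625 and 248 CPM) and Il4ra (77.5 and 29.8). T cell receptor signalling targets had a median of -0.18, with 3 of 22 higher and 2 lower: Cd69, an early activation receptor, was at 183 and 512 CPM, and Nr4a3, a receptor-induced factor, at 336 and 158. The interleukin 2 and STAT5 axis had a median of -0.06, with 2 of 16 higher and 1 lower. Stat5a, which carries the interleukin 2 signal, was at 33.6 and 75.6 CPM and Il15ra at 12.9 and 51.2. TGF-beta signalling had a median of -0.33 with none of 14 past 2-fold, survival and apoptosis -0.27 with 1 of 18 each way, adhesion and actin 0.25 with 1 of 20 higher, and pan T cell genes 0.21 with none of 16. Genes of heat shock and dissociation stress, a sign of handling, had a median of 0.27 with 2 of 22 higher and 1 lower (0.71 in the comparison cells), and Fosb was at 220 and 663 CPM. Its part in the other differences was not tested.

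**Figure D5:**
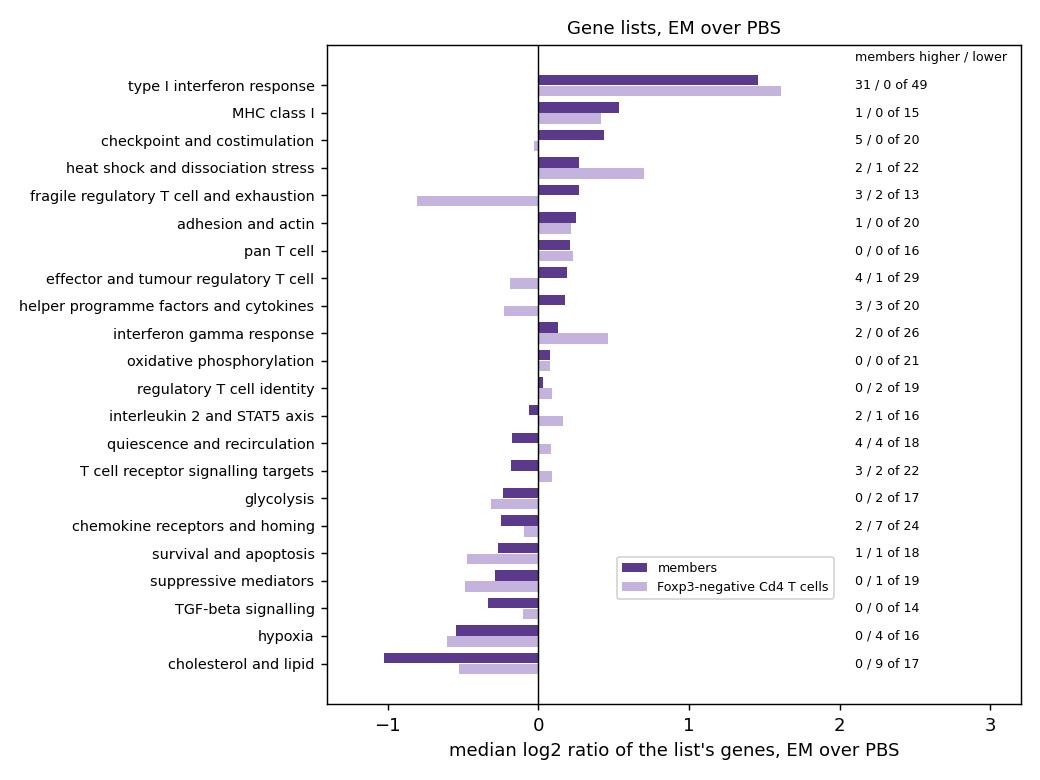
Median log2 ratio of EM over PBS for each of 22 lists, in members (dark) and in Foxp3-negative Cd4 T cells (light), with the members' genes past 2-fold higher and lower at the right. The type I interferon list was at 1.46 in members and 1.61 in the comparison cells, and the cholesterol and lipid list at -1.02 and -0.53.

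Over all 5281 genes with at least 50 UMIs, 282 (5.34%) were more than 2-fold higher in EM members and 223 (4.22%) lower. By the rule for genes outside the lists (the 12 highest and 12 lowest ratios among well-measured genes), the highest also held Plac8, a small cysteine-rich protein, at 31.0 and 522 CPM, from 12 UMIs in 6 cells and 684 in 149 cells. Ifitm1, an antiviral membrane protein, had 1 UMI in PBS members and was at 102 CPM in EM, from 28 cells. The lowest held Gda, guanine deaminase, at 387 and 22.2 CPM, Serpina3g, a serine protease inhibitor of activated T cells, at 633 and 138, Gpx4, which detoxifies lipid peroxides, at 266 and 53.5, and Dgat1, which makes triglycerides, at 256 and 68.0. In the comparison cells 3.36% of genes were higher and 5.12% lower by that margin. Gda was lower there too, at 49.0 and 4.51 CPM.

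The members differed among themselves along effector markers. At 1000 UMIs per cell, all 4 of Il2ra, Ikzf2, Ctla4 and Izumo1r were seen in 15 of 49 PBS members (30.6%, 18.2 to 45.4) and 38 of 273 EM members (13.9%, 10.04 to 18.6). EM members with a Gzmb UMI, 146 of 273, held 18774 CPM of the effector list against 14213 in those without, of which Gzmb is not a member. PBS members with one, 25 of 49, held 17920 against 12708. The 26 EM members with a Klrg1 UMI held 22000 CPM of the effector list, against 15943 in the other 247, Klrg1 itself left out. No test was made of these splits, whose cells share 1 library.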

How the data were processed

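Single immune cells were captured on the BD Rhapsody system. The values the authors deposited are counts of UMIs, not normalized, in 1 matrix per treatment, and the submitters' processing notes name CASAVA 1.8, STARsolo and the build mm10, with no role or order. Cells were kept with at least 500 UMIs, at least 200 genes and at most 20% mitochondrial UMIs, 7756 in PBS and 7967 in EM (median depth 4303 and 2016 UMIs). Doublets were not called. Counts were summed over the cells of a group and divided by the group's total. Log2 ratios carry no pseudocount and have exact conditional binomial 95% intervals, and shares have exact Clopper-Pearson intervals. UMIs are taken as independent, so intervals cover counting error only and leave out the spread between cells and animals. With 1 library per group no test was made. Where a group was at 0, a floor of 3 counts gave the bound on the fold. In counts past 2-fold such a gene was taken as past it whatever its bound, and in medians it ranked at that end. Genes needed 50 UMIs over both groups, or 20 in a gene list, and were counted past 2-fold. Shares were also taken after thinning cells to 1000 or 500 UMIs, choosing members again. Text names come from the lists and, outside them, from the 12 highest and 12 lowest ratios among genes with at least 100 UMIs, 50 CPM and an interval that leaves out equality, and from the 12 highest and lowest over comparison cells by the ratio nearer 0. Members and lists were chosen with earlier results of these data known. Positions are from GENCODE on GRCm38, the same assembly as mm10, matched by gene ID (31107 of 31253 genes). Only the log2 ratios and their intervals were tested on simulated data, with counts drawn as independent, which the intervals also take them to be. Scripts used python 3.11.15, numpy 2.4.6, scipy 1.17.1, pandas 2.3.3 and matplotlib 3.10.9. Values of some list genes are not reported here.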

Additional observations from a re-analysis of the deposited data

Results flagged for a closer look

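Flagged were 11 list genes whose EM over PBS log2 ratio had opposite signs in members and in Foxp3-negative Cd4 T cells. Both intervals had to leave out equality, and the ratios had to lie at least 2-fold apart. Genes with a smaller gap, such as Icos (0.55 and -0.16), are therefore not among them. The difference between the cell types was not tested. Higher in EM members and lower in the comparison cells were Havcr2 (1.96 and -1.43), Pdcd1 (1.26 and -0.79), Btla (1.20 and -0.44), Stat5a (1.17 and -0.79), Tnfsf11 (1.15 and -0.41) and Tox (0.70 and -1.01). Lower in EM members and higher in the comparison cells were Bach2 (-1.30 and 0.60), Itgae (-0.68 and 1.74), Gm4951 (-0.70 and 0.78), Iigp1 (-0.38 and 0.86) and Egr1 (-0.36 and 1.06). At 1000 UMIs per cell, 21 of 582 EM comparison cells and none of 177 in PBS held all 4 of Il2ra, Ikzf2, Ctla4 and Izumo1r. Whether some comparison cells were regulatory T cells whose Foxp3 was not seen was not tested. Among members chosen at 1000 UMIs per cell, Itgae had a ratio of 0.84 (-0.05 to 1.89) and Tnfsf11 of -0.60 (-2.52 to 1.88), and both intervals include equality.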

How the results depend on the processing

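No paired analysis was possible because each treatment has 1 library. Limits on cells of 3000 UMIs, the omission of the PBS member with most macrophage UMIs and of the top cell per gene were chosen after seeing the data. The ratio of the share of regulatory T cells, 1.94, was 1.47 with cells thinned to 1000 UMIs and 3.03 with 500, and 9 of its 11 alternatives moved it less than its interval. For EM over PBS in members, genes past 2-fold were 282 higher and 223 lower. They were 616 and 539 with at least 20 UMIs per gene, 69 and 39 with 200, 738 and 737 past 1.5-fold, and 135 and 45 in thinned cells. Higher genes were 160 in cells with at least 3000 UMIs, and lower genes 123 without cells holding UMIs of other classes. In the comparison cells 249 higher and 379 lower became 427 and 724, 104 and 106, and 701 and 1170 under the same first 3 settings, with 137 lower after thinning. For members over comparison cells in PBS, 235 and 381 became 476 and 852, 68 and 88, 664 and 871, 39 and 67 after thinning, and 143 and 237 without other-class cells. In EM, 182 and 213 became 357 and 443, 73 and 68, 623 and 558, and 86 and 118 after thinning, with 132 lower at 3000 UMIs. Medians near equality could change sign within the set margin, such as regulatory T cell identity (0.03, and as low as -0.09). Of 308 list medians under alternatives, 298 stayed within that margin, keeping their sign where the main median was at least 0.25 in size. The others were quiescence, 0.54 with at least 2 Foxp3 UMIs and 0.64 thinned; T cell receptor targets, 0.33 thinned; helper factors, -0.80 thinned; TGF-beta signalling, 0.24 thinned; hypoxia, 0.050 thinned; and heat shock, 0.61 with equal weight per cell, 0.62 thinned, 0.70 without the deepest 6% of cells and 0.59 without other-class cells. All 4 identity markers were seen in 70.1% of PBS and 40.4% of EM members without thinning, and in 0% and 3% at 500 UMIs. Single genes had a value of the opposite sign, each with an interval that includes equality, in thinned cells chosen again for Gzmb (-0.13), Fdft1 (1.33), Tnfsf11 (-0.60), Itgae (0.84), Ly6a (-0.027), Parp9 (-0.27) and Scd2 (0.61), without other-class cells for Tnfrsf9 (-0.060), Slfn5 (-0.22) and Idi1 (0.67), and at 3000 UMIs for Fabp5 (0.13) and Gzmb (-0.016). The cause was not tested. Thinning leaves 49 PBS members, so genes with few UMIs, Isg15 among them, had no ratio there.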

Other observations

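Ighm, the immunoglobulin mu heavy chain, was at 155 CPM in PBS members and 370.5 CPM in EM members, in 28 of 97 and 219 of 547 cells. In the Foxp3-negative Cd4 T cells it was at 26.8 and 272 CPM, in 26 of 395 and 71 of 885, and 1 EM comparison cell held 81.0% of that group's Ighm UMIs. The B cell genes Ms4a1 and Cd79a had no UMI in PBS members and 2 and 3 UMIs in EM members. The source of Ighm RNA in the members was not tested.

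Several genes outside the lists stood far apart between the libraries in both cell types. Frmd5 had 1 UMI in PBS members and 299 in EM members, with log2 ratios of 6.47 (3.98 to 11.77) in members and 6.73 (4.22 to 12.04) in the comparison cells. Wdr19 was at 5.17 and 99.3 CPM in members, with ratios of 4.27 (2.38 to 7.33, from 2 UMIs in PBS) and 4.19. Tex14 was at 2789 and 428 CPM, with ratios of -2.71 and -2.41.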
